A study of Mus musculus with 55 samples.

Results

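Lbp, Csf1, Spp1, Ptprc and Prl8a2 are 5 genes of immune cells and of the decidua, the transformed lining of the pregnant uterus, among the 24421 genes of the allele-specific tables of the embryos. They were listed as a trace of maternal uterine tissue and were picked for their measured pattern in 3 embryos, so their allelic values in the embryos are a description and carry no test. Embryos of this series were made by in vitro fertilization of oocytes that carried 2 mutant copies of Dnmt3a (Dnmt3aADA/ADA) and of Dnmt3L (Dnmt3LD124A/D124A), called double mutant here, with wild-type spermatozoa of the JF1 strain. The mutations change the ADD domain, by which both proteins read unmethylated histone H3, and the mothers had a C57BL/6J background. Zygotes grown to the 2-cell stage developed in oviducts and uteri of pseudo-pregnant ICR females, and embryos and placentas were dissected from those uteri (embryonic day 9 in the labels). RNA of each embryo was sequenced and reads were assigned to the maternal or the paternal (JF1) allele. The other 52 libraries came from single oocytes, none of which the choice of the 5 genes used: 18 wild-type fully grown oocytes (FGOs), 8 FGOs with the DNMT3L mutation alone (Dnmt3a+/+, Dnmt3LD124A/D124A; Dnmt3L-ADD below), 8 with the DNMT3A mutation alone (Dnmt3aADA/ADA, Dnmt3L+/+; Dnmt3a-ADD below), 8 double mutant FGOs, and 10 wild-type oocytes at metaphase of the second meiotic division (MII). FGOs came from ovaries of mice 10 to 12 weeks old.

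All 5 genes have known roles at the border of mother and embryo. Lbp encodes lipopolysaccharide-binding protein, an acute-phase protein that hands bacterial lipopolysaccharide to CD14 and the TLR4 receptor. Csf1 encodes colony stimulating factor 1, the growth factor of macrophages, which uterine epithelium makes in pregnancy and which acts through the CSF1R receptor. Spp1 encodes osteopontin, a secreted protein that binds integrins and CD44 and is made by uterine glands, decidua and macrophages. Ptprc encodes CD45, the tyrosine phosphatase found on nearly all white blood cells. Prl8a2 encodes decidual prolactin-related protein, a member of the prolactin family made by decidual stroma.

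RefSeq promoter windows (GRCm38.p6, from 250 bases before to 50 after the start) were at hand for Spp1, Csf1 and Ptprc and are shown because these genes stood high together in the same embryo. Capitals mark letters that match a searched motif on either strand. Searched were the core AGGAAGT of the ETS family, which includes the PU.1 factor of macrophages, the TATA box TATAAA, the Runx motif ACCACA and the AP-1 motif TGANTCA. The NF-kappaB motif was searched as GGGA with any 3 bases and then TCC.
Spp1, chr5:104434861-104435160, plus strand: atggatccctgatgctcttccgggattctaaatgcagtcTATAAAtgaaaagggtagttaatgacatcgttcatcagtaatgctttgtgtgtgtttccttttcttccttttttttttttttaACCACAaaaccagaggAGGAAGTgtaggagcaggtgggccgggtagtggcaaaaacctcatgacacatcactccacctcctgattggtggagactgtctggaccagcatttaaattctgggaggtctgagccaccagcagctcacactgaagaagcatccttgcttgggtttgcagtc
Csf1, chr3:107760420-107760719, minus strand: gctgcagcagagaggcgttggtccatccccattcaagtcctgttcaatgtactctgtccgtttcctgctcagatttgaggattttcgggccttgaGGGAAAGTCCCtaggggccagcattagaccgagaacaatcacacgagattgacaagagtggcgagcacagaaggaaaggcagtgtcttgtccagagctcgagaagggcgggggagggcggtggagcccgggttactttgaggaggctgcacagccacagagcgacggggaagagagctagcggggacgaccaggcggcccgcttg
Ptprc, chr1:138175256-138175555, minus strand: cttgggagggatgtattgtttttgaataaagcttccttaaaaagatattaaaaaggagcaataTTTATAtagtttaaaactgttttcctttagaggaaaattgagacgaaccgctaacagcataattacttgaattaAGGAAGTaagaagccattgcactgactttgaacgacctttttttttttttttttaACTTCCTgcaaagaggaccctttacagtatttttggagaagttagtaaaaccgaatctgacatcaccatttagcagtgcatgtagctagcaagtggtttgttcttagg

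The Spp1 window holds AGGAAGT from base -112, ACCACA from -128 and TATAAA from -211. The Ptprc window holds AGGAAGT from -113, its reverse complement from -58 and the reverse complement of TATAAA from -187. Csf1 has an NF-kappaB match from -155 and, overlapping it, another on the opposite strand from -154. Of all 32851 windows in the table, 9.35% hold AGGAAGT on either strand, 4.59% the NF-kappaB letters, 13.6% TATAAA, 16.8% ACCACA and 7.81% TGANTCA, which none of the 3 windows holds. CpG dinucleotides, which are among the sites that DNMT3A methylates, number 16 in the Csf1 window, 3 in the Spp1 window and 4 in the Ptprc window, against a median of 7 over all windows. These matches describe letters only and do not show binding.

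Allelic counts amounted to 7534598, 8547786 and 6998944 in embryos 1, 2 and 3, and the median autosomal gene had a maternal share (maternal counts as a percent of both alleles) of 51.4%, 58.8% and 51.3%. In embryo 2, chromosomes 6 and 9 had higher medians, 71.2% and 71.0%, than the other autosomes (55.6% to 59.4%). None of the 5 genes lies on chromosome 6 or 9. Embryo 1 stood apart from the others in embryonic globins and heart muscle genes, which are given with the marker lists below. The allelic tables also have columns named wild-type, but they match no sample of the labels and were not used, so no comparison of embryo genotypes was made. RNA of the recipient uterus and RNA of the embryo's own maternal allele cannot be told apart in the maternal column, and how reads of the ICR recipient were assigned is not given in the sources used here. Some recipient reads may therefore stand in the paternal column too, so paternal counts below are not known to be those of the embryo alone. More cells of a type and more RNA per cell cannot be told apart in such bulk samples either.

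Embryo 2 stood far above the others on the maternal allele for Lbp, Csf1, Spp1 and Ptprc, and less so for Prl8a2. Counting genes with at least 10 maternal counts in an embryo, 4 of the 5 were over 4-fold higher in embryo 2 than in both others, in counts scaled to the embryo's allelic total (CPM), and none was so in embryo 1 or 3. Over 12398 such genes, 6.29% stood over 4-fold above both others in embryo 2, 2.4% in embryo 1 and 0.331% in embryo 3. On the paternal allele, 1 of 3 measurable members (Spp1) met the same rule in embryo 2, against 1.31% of 11587 genes, with 3.25% in embryo 1 and 0.673% in embryo 3. The genes were picked on these counts, so nothing is read from the difference between their share and the background. In this count and in those of the lists below, a gene with at least 10 counts in embryo 2 alone entered only through the embryo where it was high. The shares over all genes given here stand beside the counts of the lists as well. The member that did not meet the rule on the maternal allele was Prl8a2, at 3.34-fold above embryo 3.

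**Figure D1:**
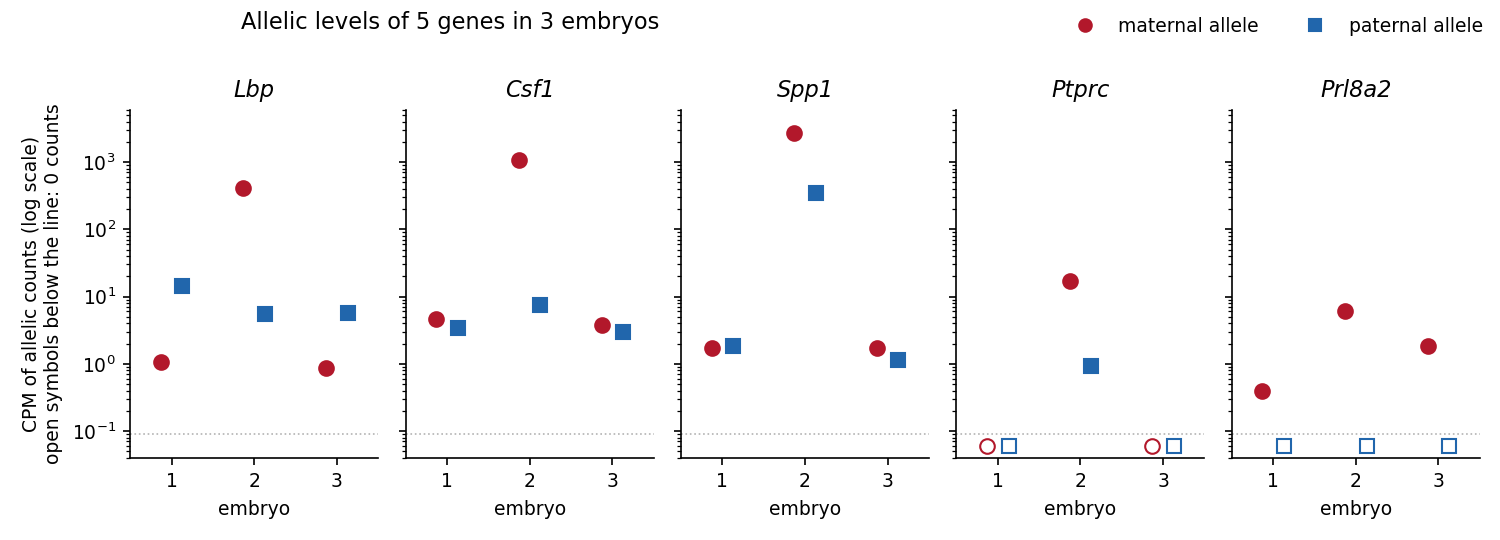
CPM of allelic counts (log axis) of 5 genes in embryos 1 to 3, with the maternal allele as circles and the paternal allele as squares, 1 library per embryo; open symbols under the dotted line had 0 counts. Maternal symbols of embryo 2 lie highest in every panel, up to 2721 CPM for Spp1, while on the paternal allele it stands far above the others for Spp1 alone (342 CPM).

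Spp1 (chromosome 5, 104435118 to 104441050 in mm10, plus strand) had the most counts of the 5. Its maternal counts were 13, 23255 and 12 in embryos 1, 2 and 3, and its paternal counts were 14, 2923 and 8. Embryo 2 was thus high on both alleles, 1577-fold and 1587-fold above embryos 1 and 3 on the maternal allele and 184-fold and 299-fold on the paternal allele. Whether recipient reads are among these paternal counts was not tested. In embryo 2 Spp1 ranked 7th of 24421 genes by maternal count and took 0.450% of all maternal counts. Maternal shares were 48.1% (95% Wilson interval 30.7 to 66.0), 88.8% (88.5 to 89.2) and 60% (38.7 to 78.1). These intervals cover counting error only, and those of embryos 1 and 3 include the autosomal median of their embryo. The share of embryo 2 rests on 26178 allelic counts. Both alleles together gave 3.58, 3063 and 2.86 CPM.

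Csf1 (chromosome 3, 107741048 to 107760469, minus strand) had 35, 9140 and 26 maternal counts and 26, 64 and 21 paternal counts. On the maternal allele embryo 2 exceeded embryos 1 and 3 by 230-fold and 288-fold, and on the paternal allele by 2.17-fold and 2.495-fold. The maternal share of 99.3% (99.1 to 99.5) in embryo 2 lay at percentile 96.9 of autosomal genes. In embryos 1 and 3, shares of 57.4% (44.9 to 69.0) and 55.3% (41.3 to 68.6) included the autosomal median, and the levels of both alleles together were 8.10 and 6.72 CPM, against 1077 CPM in embryo 2.

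Lbp (chromosome 2, 158306493 to 158332852, plus strand) differed from the other 4 by its direction in the other embryos. Maternal counts were 8, 3574 and 6 and paternal counts 107, 47 and 40. The maternal share was thus low in embryos 1 and 3, 6.96% (3.57 to 13.1) and 13.04% (6.12 to 25.7), and 98.7% (98.3 to 99.0) in embryo 2. Such low shares lay at percentiles 0.507 and 1.03 of autosomal genes in embryos 1 and 3, so Lbp was mostly paternal where it was low and mostly maternal where it was high. The paternal allele was 0.387 times as high in embryo 2 as in embryo 1 and 0.962 times as high as in embryo 3, while the maternal allele was 394-fold and 488-fold higher.

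Ptprc (chromosome 1, 138062861 to 138175708, minus strand) had 145 maternal and 8 paternal counts in embryo 2 and 0 of both in embryos 1 and 3. A count of 0 allows up to 3 counts, so that its maternal level was at least 42.6-fold higher in embryo 2 than in embryo 1 and at least 39.6-fold higher than in embryo 3. Its maternal share in embryo 2 was 94.8% (90.0 to 97.3). Both alleles together gave 17.9 CPM there. Ptprc marks white blood cells as a whole, and it ranked 6537th by maternal count in embryo 2, where Lbp ranked 138th and Csf1 24th.

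Prl8a2 (chromosome 13, 27345683 to 27354216, plus strand) had 3, 53 and 13 maternal counts and no paternal count in any embryo. Its maternal level in embryo 2 was 15.6 times that of embryo 1 (exact counting interval 5.05 to 77.9) and 3.34 times that of embryo 3 (1.80 to 6.68). Both intervals cover counting error only, and the levels are those of single embryos. Shares were 100% (93.2 to 100) in embryo 2 and 100% (77.2 to 100) in embryo 3, while embryo 1 had too few counts for a share. Whether paternal reads of Prl8a2 can be told from maternal ones was not tested.

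**Figure D2:**
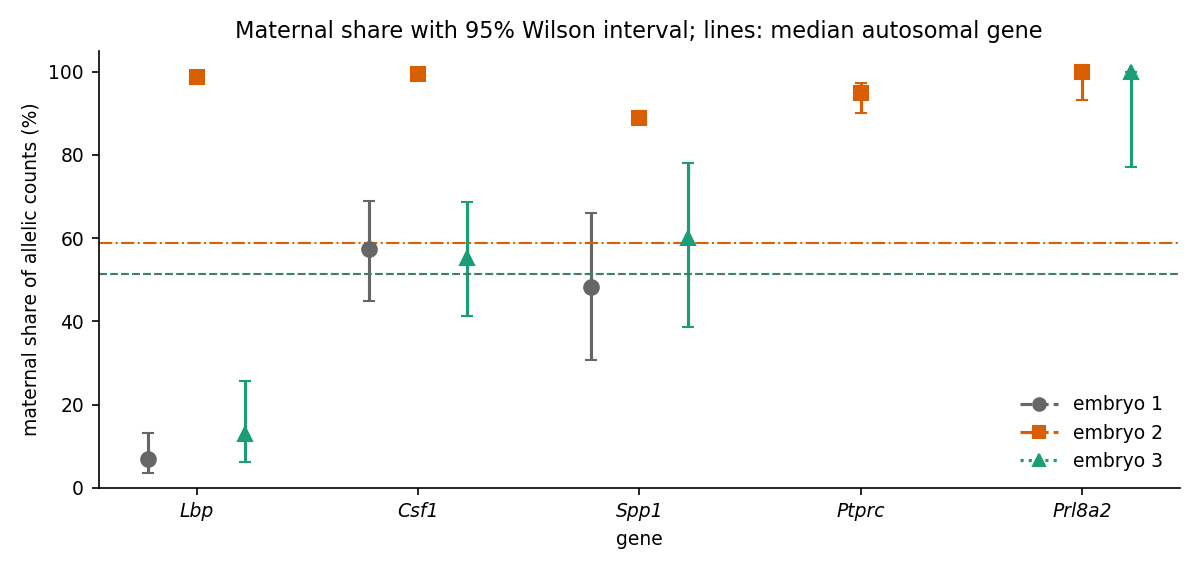
Maternal share of allelic counts (%) per gene and embryo with 95% Wilson intervals (counting error only), for genes with at least 10 allelic counts in that embryo; horizontal lines mark the median autosomal gene of each embryo. Every share of embryo 2 lies between 88.8% and 100%, whereas Lbp is at 6.96% and 13.04% in embryos 1 and 3, whose median lines nearly coincide.

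Over the 3 embryos, the mean maternal share was 39.6% ± 51.3 (SD, n = 3) for Lbp, 70.7% ± 24.8 for Csf1 and 65.7% ± 20.9 for Spp1. Such a spread is that of embryo 2 against the others and does not describe a shared level. The genes also differed in their mean level, 1023 CPM ± 1766 for Spp1, 364 ± 617 for Csf1, 148 ± 238 for Lbp, 5.97 ± 10.3 for Ptprc and 2.82 ± 3.02 for Prl8a2. By the distance between centred log2 CPM values, Csf1 and Ptprc were the most alike pair (2.30) and Spp1 and Prl8a2 the least (9.86). Genes differ in how many polymorphisms tell the alleles apart, so allelic levels of different genes are not levels per length.

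Partners of LBP were split in embryo 2. Of 6 genes on the list, 4 had enough maternal counts and 2 of these stood over 4-fold above both other embryos in embryo 2, beside the 6.29% of all genes given above. All 4 with a share there lay above the autosomal median. Myd88, the adaptor of Toll-like receptors, had 38, 376 and 101 maternal and 19, 91 and 62 paternal counts. Tlr2 had 2, 79 and 20 maternal and 10, 32 and 9 paternal counts. Chosen after their values were seen, Cd14 had 6, 536 and 3 maternal counts with 0, 169 and 1 paternal counts, and Tlr4 had 15, 159 and 0 maternal counts with 15, 3 and 0 paternal counts. Cd14 was thus high on both alleles in embryo 2, as Spp1 was.

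Of the CSF1 pathway, 3 of 4 measurable genes stood over 4-fold above both other embryos on the maternal allele of embryo 2, against 0 of 3 on the paternal allele. Grb2, the adaptor that binds CSF1R, had 627, 803 and 621 maternal and 566, 551 and 641 paternal counts, with no such difference. The receptor gene Csf1r itself, chosen after its values were seen, had 5, 182 and 2 maternal and 7, 15 and 4 paternal counts. Spi1, likewise chosen, which encodes the PU.1 factor of macrophages, had 40 maternal and 10 paternal counts in embryo 2 and 0 in the others, and Cebpa, another factor of myeloid cells chosen so, had 6, 99 and 7 maternal and 3, 4 and 3 paternal counts. Csf1r, Spi1 and Cebpa were thus the 3 genes that met the rule, and each reached 10 maternal counts in embryo 2 alone.

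Of the receptors of SPP1, 0 of 7 stood over 4-fold above both other embryos in embryo 2 on either allele. Over all genes it was 6.29% on the maternal and 1.31% on the paternal allele, so 0 of 7 is near these shares. Itgb1, the most counted integrin, had 1575, 1757 and 1086 maternal and 1920, 1510 and 1241 paternal counts. Itgb5 had 312, 1248 and 562 maternal counts, Itga9 had 755, 348 and 134, and Itgav had 295, 307 and 243. In embryo 2 the median maternal share of the 7 receptors was 59.1%, close to the autosomal median.

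Kinases that CD45 acts on and their relatives were read in the same way. Jak2, a kinase of cytokine receptors, had 167, 955 and 96 maternal and 213, 231 and 106 paternal counts and stood over 4-fold above both other embryos on the maternal allele of embryo 2. Lyn, with 25, 103 and 52 maternal counts, and Fyn, with 303, 235 and 172, did not.

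In the prolactin family, 19 of the 26 genes other than Prl8a2 had 0 allelic counts in all embryos. Prlr, the prolactin receptor, had 5, 309 and 35 maternal and 11, 77 and 62 paternal counts. Prl6a1, chosen after its values were seen, had 27 maternal counts in embryo 2 and no other count, and Prl3d1, a product of trophoblast giant cells, had 11 there and no other. Prl7a1, chosen likewise, had 2, 5 and 0 maternal and 0, 10 and 0 paternal counts and so a maternal share of 33.3% in embryo 2. Of the 3 measurable genes 2 met the rule on the maternal allele there (Prlr and Prl6a1). The summed maternal level of the family without Prl8a2, 0.929, 41.7 and 5.001 CPM in embryos 1, 2 and 3, was mostly that of the receptor gene.

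Markers of other tissues were read beside the 5 genes. Of 15 decidual stroma genes other than Prl8a2, 4 of 13 measurable ones were over 4-fold higher on the maternal allele of embryo 2, 11 of the 13 with a share there lay above the autosomal median, and the summed maternal share was 66.3%, against 45.9% and 47.2% in embryos 1 and 3. The most counted of these, Des, Wnt6, Bmp2 and Il11ra1, had 117, 148, 141 and 28 maternal counts in embryo 2, and none of them met the rule. Those that did, named after their values were seen, were Pgr, the progesterone receptor (160 maternal and 40 paternal counts), Hoxa10 (151 and 37), Hoxa11 (101 and 20) and Tdo2 (71 and 20). Hoxa10 and Hoxa11 lie on chromosome 6, which, like chromosome 9, had a raised maternal share as a whole in embryo 2. The chromosomes of Pgr and Tdo2 are not given here, so the same limit may hold for them.

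Of the macrophage markers, Csf1r among them, 8 of 10 measurable ones were over 4-fold higher on the maternal allele of embryo 2, beside 6.29% of all genes. On the paternal allele it was 1 of the 5 with enough paternal counts, beside 1.31%. All of the 10 but Cd68, Mrc1 and Mertk reached 10 maternal counts in embryo 2 alone, so they passed the filter only where they were high. Their summed maternal share was 85.1% there. The summed maternal level ran from 8.36 CPM in embryo 1 and 14.3 CPM in embryo 3 to 102 CPM in embryo 2. Cd68 had 12, 128 and 9 maternal counts and Mrc1 had 19, 53 and 11, while Mertk had 28 in embryo 2 and 74 in embryo 3. Lyz2, chosen after its values were seen, had 208 maternal counts in embryo 2 and at most 4 elsewhere, and Cx3cr1 had 144 maternal and 64 paternal counts in embryo 2 only. Of the list, 4 genes had 0 counts everywhere, C1qa, C1qb and C1qc among them. A gene without a usable polymorphism reads 0 too, so this does not show that these genes were silent.

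Natural killer and T cell markers gave 0 counts in embryo 1, 201 maternal and 18 paternal in embryo 2, and 18 and 2 in embryo 3, a summed maternal share of 91.8% in embryo 2. Of 9 measurable genes, 5 were over 4-fold higher there. Gzmb, a granzyme chosen after its values were seen, had 0, 38 and 5 maternal counts. Neutrophil markers had at most 3 allelic counts per embryo. Of the uterine epithelium and gland list, 3 of 6 met the rule on the maternal allele of embryo 2, namely Muc1 with 6, 296 and 14 maternal counts and, chosen after they were seen, Lcn2 with 0, 649 and 1 and Ltf (on chromosome 9) with 0, 234 and 0. Spink1, the most counted gene of this list, had 22, 1098 and 313 maternal and 61, 777 and 246 paternal counts and did not meet it. Foxa2, a factor of gland cells, had 11, 31 and 16 maternal and 21, 56 and 26 paternal counts and so a maternal share of 35.6% in embryo 2, where 3 of the 6 genes with a share lay above the autosomal median. The part of any of these cell types in the levels of the 5 genes was not tested.

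Blood of the adult recipient was also looked for. Both adult beta globin genes had 0 counts in all embryos, and a lack of usable polymorphisms would read the same. Embryonic globins were high in embryo 1 alone, where Hba-x had 6386 maternal and 6293 paternal counts, against at most 23 on an allele in the others. Heart muscle genes were also highest in embryo 1, with 936, 61 and 129 maternal counts of Tnnt2. Yolk sac endoderm genes were highest in embryo 2 on both alleles, with 160, 5532 and 1695 maternal and 270, 5748 and 1604 paternal counts of Apob, and a summed maternal share of 52.4%. Summed shares of embryonic globins and heart muscle genes in embryo 1 were 52.3% and 48.1%. These sums follow the most counted genes, and single genes differed: Apoa1 had 1602 maternal and 442 paternal counts in embryo 2 (78.4%), Apoa4 had 517 and 251 (67.3%), Afp had 1311 and 1704 (43.5%), and Hbb-bh1 had 2199 and 976 in embryo 1 (69.3%). The chromosomes of these genes are not given here. In embryo 2, genes of chromosomes 6 and 9 had raised shares as a whole (medians 71.2% and 71.0%), and the part of this in single shares was not tested. Trophoblast genes summed to 1.99, 12.99 and 15.3 CPM on the maternal allele of embryos 1, 2 and 3. Most of this was Plac1, with 13, 82 and 97 maternal and 0, 17 and 2 paternal counts. Summed over both alleles, oocyte markers had 3.05, 1.05 and 2 CPM and granulosa markers, most of them Fst counts, had 48.7, 41.2 and 84.2 CPM, so that both lists were lowest in embryo 2.

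**Figure D3:**
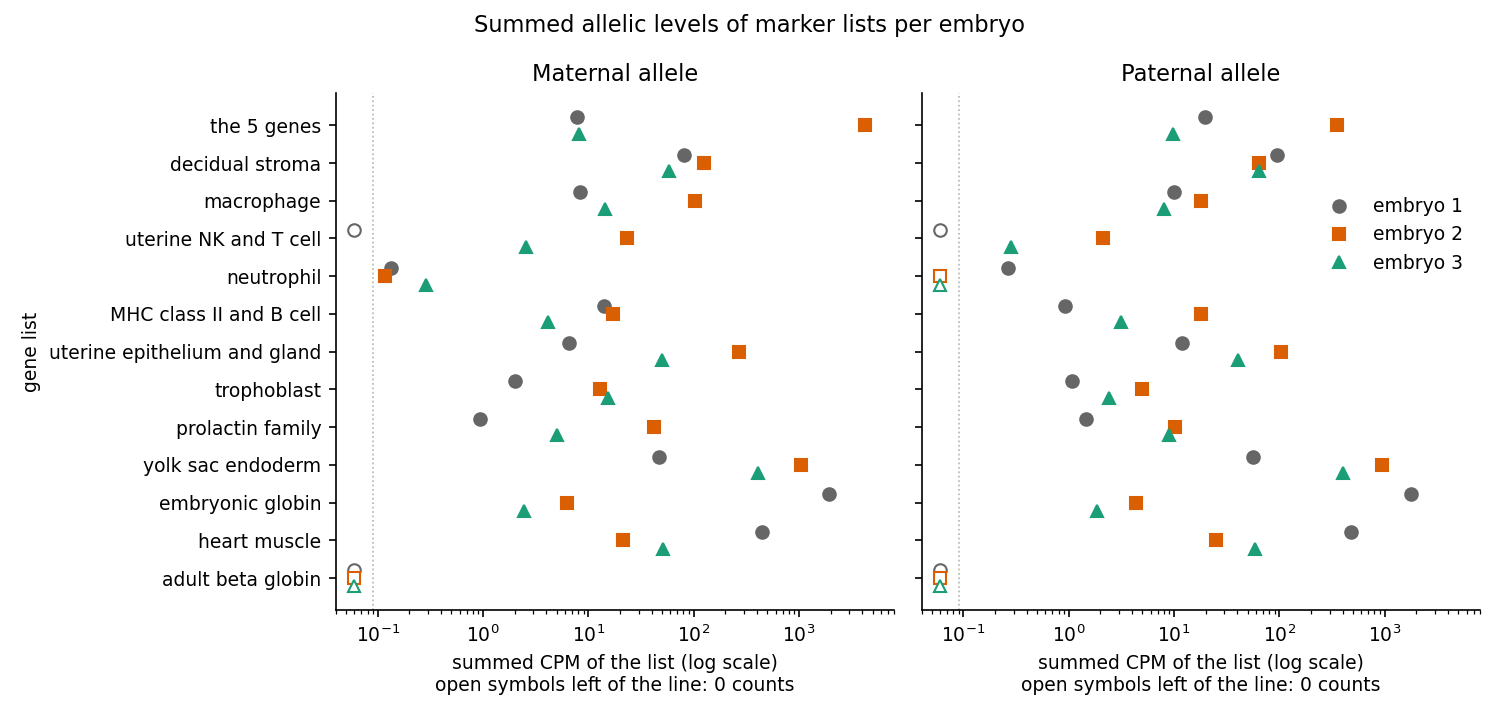
Summed CPM (log axis) of each gene list on the maternal allele (left) and the paternal allele (right) in embryos 1, 2 and 3; the 5 genes are left out of the other lists, and open symbols left of the line had 0 counts. The 5 genes sum to 7.83, 4231 and 8.14 CPM on the maternal allele, and macrophage, natural killer and T cell, and epithelial lists are also highest in embryo 2 there, while yolk sac, globin and heart lists look alike on both alleles.

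Tested over all embryos with the embryo as a block (edgeR quasi-likelihood test, adjusted over all genes), 58 of 10844 genes were maternal higher (0.535%) and 30 were paternal higher (0.277%). No call is given for the 5 genes, and none of the genes of the 18 marker and pathway lists that could be tested passed, among them 9 of decidual stroma, 3 of macrophages, 3 of the LBP pathway and 7 receptors of SPP1. The filter asks for counts in several allele columns, so genes counted almost only in the maternal column of embryo 2 could not enter. Of 14 macrophage genes 3 were tested, and of 14 natural killer and T cell genes 0. The lack of calls thus says nothing of the genes left out. At an unadjusted p under 0.05, 1 gene of decidual stroma, 0 of macrophages, 1 of the LBP pathway and 1 receptor of SPP1 passed, against 1924 of all genes. Without embryo 2 the calls were 18 and 8, without embryo 3 they were 0 and 0 and without embryo 1 they were 593 and 179, so this test turns on single embryos. DESeq2 gave 398 and 279 calls.

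Genes whose 6 values were nearest to each member were found among 11522 autosomal genes. Nearest to Lbp was Plscr2, with 0, 231 and 0 maternal and 18, 3 and 2 paternal counts (distance 1.27 on the log2 scale), followed by Trpv6 (0, 1418 and 1 maternal, 11, 4 and 4 paternal) and Ch25h (0, 124 and 0 maternal). Plscr2 and Trpv6 lie on chromosomes 9 and 6, and Ch25h on 19. Nearest to Csf1 were Havcr1 (357 maternal counts and 1 paternal count in embryo 2, 0 elsewhere), Mmp7 (268 maternal) and Lrg1 (265 maternal). Spp1 had as its nearest genes Hsd11b1, an enzyme of glucocorticoid activation (1565 maternal and 148 paternal counts in embryo 2 only), Vtcn1 (611 and 54) and Gabrp (857 and 98). All 3 kept a lesser paternal level in embryo 2, with maternal shares of 91.4%, 91.9% and 89.7%. Ptprc was nearest to Ephx1 (94 and 6), Ltf (234 and 10) and Gbp5 (90 and 9). For Prl8a2 they were Erv3, with 6, 61 and 17 maternal counts and no paternal count, Cd300e (4, 27 and 9) and Acpp (6, 106 and 15). Mmp7, Ltf and Acpp also lie on chromosome 9, which like chromosome 6 had a raised maternal share as a whole in embryo 2. The measure uses the same 6 values that picked the members and says nothing of shared control.

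Neighbouring genes on the chromosome were read as well. The 5 nearest genes with at least 10 allelic counts in embryo 2 were taken on each side of a member. Their median maternal share in embryo 2 was 58.75% around Lbp, 73.5% around Csf1, 56.98% around Spp1, 58.04% around Ptprc and 67.95% around Prl8a2, against 98.7%, 99.3%, 88.8%, 94.8% and 100% of the members themselves. Around Lbp none of 10 neighbours reached the share of the member. Tgm2, a transglutaminase 160057 bases away and chosen after its values were seen, came closest with 2303 maternal and 62 paternal counts (97.4%). Around Csf1, 2 neighbours reached it, Slc6a17 (32 and 0) and 4933431E20Rik (48 and 0), while the nearest gene, Ahcyl1, had 59.6% (1623 and 1102). Sparcl1 (542 and 29) did so around Spp1, 2310009B15Rik (10 and 0) around Ptprc, and Prl3d1 and Prl6a1 around Prl8a2, all of them likewise named after their values were seen. Medians of the members' whole chromosomes in embryo 2 ran from 56.9% (chromosome 2) to 59.4% (chromosome 3).

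In single oocytes, which were measured with no uterine tissue beside them, the 5 genes fell into those with counts in all wild-type FGOs (Csf1, Lbp, Prl8a2) and those near 0 (Spp1, Ptprc). Csf1 had 52.4 CPM (of the library total) at the lowest, 66.1 at the median and 92.6 at the highest of 18 wild-type FGOs, and 57.9, 67.4 and 83.4 in 10 MII oocytes. Lbp had 1.92, 4.22 and 5.88 CPM in wild-type FGOs and 2.58, 4.53 and 6.30 in MII oocytes. Prl8a2 had 0.139, 2.04 and 4.52 CPM in wild-type FGOs, none of which was at 0, and 0.395, 2.70 and 4.40 in MII oocytes. Per kilobase of exon, the median levels in wild-type FGOs were 12.5 CPM for Csf1, 2.20 for Prl8a2 and 0.875 for Lbp.

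Prl8a2 fell in FGOs of both single mutants. In Dnmt3a-ADD FGOs it ran from 0 to 0.740 CPM with a median of 0.123 and 2 of 8 libraries at 0. Dnmt3L-ADD FGOs had 0 to 1.79 CPM, a median of 0.0421 and 4 of 8 at 0, and double mutant FGOs had 0 to 2.97 CPM, a median of 0.214 and 4 of 8 at 0. All 3 mutant groups overlapped the wild-type range, but the medians of Dnmt3L-ADD and Dnmt3a-ADD FGOs lay below all 18 wild-type libraries and that of double mutant FGOs below all but 1 of them. By edgeR's quasi-likelihood test with Benjamini-Hochberg adjustment over 15726 genes, Prl8a2 fell by 3.38 on the log2 scale in Dnmt3a-ADD FGOs (SE 0.793, adjusted p = 0.00296) and fell by 2.40 in Dnmt3L-ADD FGOs (SE 0.747, adjusted p = 0.0444). In double mutant FGOs the log2 difference was -1.63 (SE 0.676, adjusted p = 0.0990), which did not pass (95% interval of the fold 0.128 to 0.807), and whether the mutants differ from each other was not tested.

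Of the 3 members with enough counts to be tested, 1 (Prl8a2) fell and 0 rose in Dnmt3L-ADD FGOs, beside 0.591% of all genes called lower and 0.0636% called higher. The count was the same in Dnmt3a-ADD FGOs, beside 1.76% lower and 0.293% higher. In double mutants 0 of 3 were called, beside 1.48% lower and 0.178% higher, and in MII against wild-type FGOs 0 of 3, beside 9% lower and 0.196% higher. Leaving out each of 42 FGO libraries in turn, a choice made after seeing the data, kept the call of Prl8a2 in 42 of 42 fits for Dnmt3a-ADD, in 29 of 42 for Dnmt3L-ADD (adjusted p from 0.0208 to 0.0983), and made it in 1 of 42 for double mutants (adjusted p = 0.0228 without double mutant replicate 1, which had 40 counts). The Dnmt3L-ADD call was lost without any of wild-type replicates 2, 4, 7, 11, 13, 14 and 16 or of Dnmt3L-ADD replicates 2, 3, 5, 6, 7 and 8. Among other prolactin family genes, Prl7d1, named after its values were seen, had median levels of 0.801 CPM in wild-type, 0.921 in Dnmt3L-ADD, 0.826 in Dnmt3a-ADD and 1.09 in double mutant FGOs. Prl2a1, named likewise and with 200 counts over all oocyte libraries, had medians of 0.418, 0, 0.118 and 0 CPM in the same order. The fall in the median was thus not particular to Prl8a2 in this family.

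Granulosa cells surround the oocyte, and their markers differed with the genotype too. Of 12 such genes, 3 fell in Dnmt3L-ADD, 5 in Dnmt3a-ADD and 9 in double mutant FGOs, and 9 fell in MII oocytes. Of all genes, 0.591%, 1.76%, 1.48% and 9% were called lower in the same order. Their summed level was 120 to 325 CPM in wild-type FGOs, 118 to 169 in Dnmt3L-ADD, 108 to 216 in Dnmt3a-ADD, 110 to 152 in double mutant FGOs and 103 to 135 in MII oocytes. The part of these cells in the values of Prl8a2 was not tested. Prl8a2 had a log2 difference of 0.26 (SE 0.513, edgeR adjusted p = 0.718) in MII oocytes against wild-type FGOs. Libraries also differed in the share of mapped reads, all 8 Dnmt3L-ADD libraries being at 80% or above and all 8 double mutant libraries under it. Within libraries under 80% the log2 difference of Prl8a2 was -3.87 for Dnmt3a-ADD (edgeR adjusted p = 0.0712) and -1.45 for the double mutant (adjusted p = 0.599). Within libraries of at least 80% it was -3.21 for Dnmt3a-ADD (adjusted p = 0.00288) and -2.61 for Dnmt3L-ADD (adjusted p = 0.0153). Nothing in the labels tells which oocytes shared a mother, so these p-values measure the spread between libraries.

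Csf1 and Lbp were not called in any oocyte comparison. Csf1 had a log2 difference of -0.25 (SE 0.0787, edgeR adjusted p = 0.0255) in Dnmt3a-ADD FGOs, past the p threshold but under the 2-fold minimum, of -0.10 in Dnmt3L-ADD and of -0.11 in double mutant FGOs. For Lbp the log2 differences were -0.32, -0.26 and -0.31 in Dnmt3L-ADD, Dnmt3a-ADD and double mutant FGOs (SE 0.216 each, edgeR adjusted p from 0.346 to 0.438). The 95% intervals of the fold (mutant over wild-type) ran from 0.599 to 1.12 for Lbp over the 3 mutants.

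Spp1 and Ptprc did not pass the filter on low counts in oocytes. Spp1 was at 0 in 10 of 18 wild-type FGOs, with at most 10 counts, and at most 6 counts in any mutant FGO. In MII oocytes it was at 0 to 2 counts in 7 libraries and at 244, 280 and 1058 counts in the other 3 (16.1, 20.8 and 82.6 CPM). In a fit with no filter Spp1 was called higher in MII than in wild-type FGOs (log2 difference 6.89, SE 0.782, edgeR adjusted p = 2.99e-10), on the counts of these 3 libraries. In them, in the same order, the summed granulosa level was 114, 135 and 109 CPM, against 103 to 121 CPM in the other 7, Csf1r had 2, 6 and 9 counts against 0 to 7, and Prl8a2 had 6, 8 and 37 counts against 18 to 53. The part of other cells in these Spp1 counts was not tested. Ptprc was at 0 in 11 of 18 wild-type FGOs, with at most 6 counts there and at most 15 in any oocyte library, and was called in no comparison of the fit with no filter (edgeR adjusted p from 0.175 to 0.796). Of the 3 genes with counts in all wild-type FGOs, Prl8a2 alone lacked paternal counts in all embryos.

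**Figure D4:**
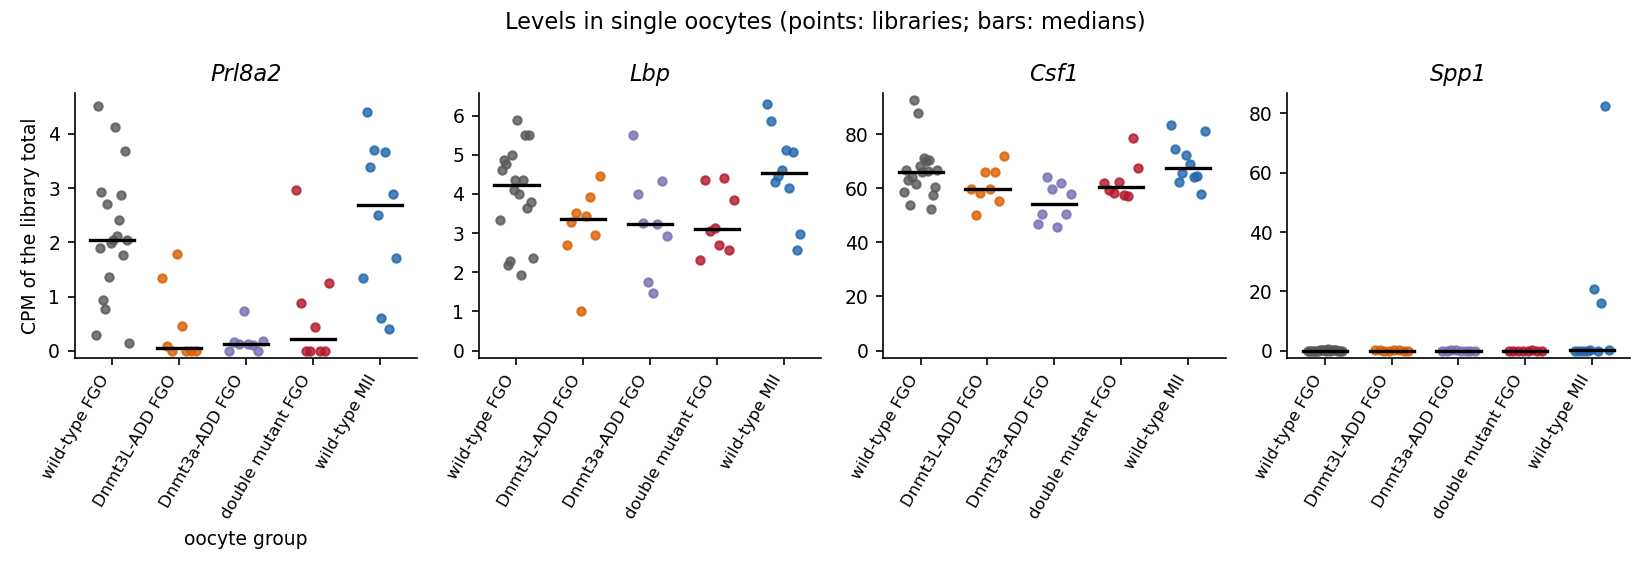
CPM of Prl8a2, Lbp, Csf1 and Spp1 in single oocyte libraries (points) by group, with group medians as bars; groups hold 18, 8, 8, 8 and 10 libraries from left to right. The Prl8a2 medians of the 3 mutant FGO groups are between 0.0421 and 0.214 CPM, against 2.04 and 2.70 CPM in wild-type FGO and MII, and 3 MII libraries carry the Spp1 counts.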

How the data were processed

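The authors aligned reads to mm10 with STAR and deposited raw counts per gene, 1 table for each of 52 oocyte libraries (single oocytes, SMART-Seq HT) and maternal and paternal tables for poly(A) libraries of 3 embryos. featureCounts and HTSeq are named for counting. Annotation release, strand setting and allele assignment are not given in the sources used here. In the allelic tables, 8 columns named wild-type match no sample of the labels and were not used. Totals were 7832458 to 23739871 counts per oocyte library, and no libraries of a group agreed within sampling noise.

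The 5 genes and all gene lists were chosen with earlier results of these data known. CPM is counts scaled to the library total, for embryos that of both alleles together. Shares needed at least 10 allelic counts. edgeR 4.0.16 under R 4.3.3 gave the tests: TMM scaling, filterByExpr (minimum count 10), quasi-likelihood, adjusted p under 0.05 and, for oocytes, over 2-fold, with the 42 FGO libraries in 1 fit and all 52 oocyte libraries in that of MII. The tests were checked on simulated data. Alternatives, DESeq2 1.42.0 among them, are given at the end. Those within classes of mapped reads (under 80% or not, from the study's library summary) and those leaving out an FGO library were added with the data in view. List genes are named if each embryo had at least 10 allelic counts (at most 4 a list, by summed count), with the 3 autosomal genes nearest to each member (Euclidean distance of 6 centred log2 CPM values, pseudocount 1, at least 30 allelic counts). Any other gene is said to be named with its values in view. Replicate numbers are shared between groups but pair nothing, since libraries of a number did not deviate together. Of 53-base windows of GENCODE M21 transcripts, 0 of Prl8a2 and Csf1, 0.104% of Lbp, 0.0377% of Ptprc and 11.2% of Spp1 (with Gm42793, at most 4 counts in an oocyte library) recur in another gene. Of oocyte counts from 1 to 10, 65.3% were even, against 44.7% in the allelic tables, and the cause was not tested. A result on 1 gene of the marker and pathway lists is not reported here.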

Additional observations from a re-analysis of the deposited data

Results flagged for a closer look

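In 5 of 20 combinations of a member and an oocyte group of 8 or 10 libraries, the highest library stood apart from the next by Dixon's criterion, where chance alone would flag about 1 in 20. In MII oocytes, replicate 9 had 82.6 CPM of Spp1 (1058 counts), with 20.8 CPM in the next library. Prl8a2 reached 2.97 CPM (40 counts) in double mutant FGO replicate 1, with 1.25 CPM next, and 0.740 CPM (14 counts) in Dnmt3a-ADD FGO replicate 4, with 0.172 CPM next. The other 2 rest on a few reads: Spp1 at 0.401 CPM (6 counts) in double mutant FGO replicate 6 and Ptprc at 0.150 CPM (2 counts) in MII replicate 1, each with 0 in all other libraries of its group. The criterion assumes normally distributed values, which counts near 0 are not.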

How the results depend on the processing

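Maternal shares rest on 3 embryos, and those of Ptprc and Prl8a2 on few counts, so depth limits them outside embryo 2. Without embryo 2 the mean share was 10% for Lbp, 56.4% for Csf1 and 54.1% for Spp1, and no share of Ptprc could be given. Summing counts over the embryos gave 94.9% for Lbp, 98.8% for Csf1 and 88.8% for Spp1, since embryo 2 holds most counts, and Spp1 was at 88.8% too where at least 30 allelic counts were asked for. Scaling to a median share of 50% moved no mean share by more than its spread.

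Prl8a2 in Dnmt3L-ADD FGOs was no longer called with no filter (log2 difference -2.41, edgeR adjusted p = 0.0750) or with wild-type libraries under 80% mapped reads alone (-2.21, adjusted p = 0.0715), and ranged from -3.12 to -2.19 with 1 library left out. In Dnmt3a-ADD FGOs it was not called within libraries under 80% (-3.87, edgeR adjusted p = 0.0712). In double mutant FGOs it ranged from -2.56 to -1.44 with 1 library left out and was called in 1 of those fits. The direction held in all of these. The causes were not tested. Lbp and Csf1 were called in no alternative run. The adjusted p of Csf1 in Dnmt3a-ADD FGOs did cross 0.05, from 0.0185 by DESeq2 to 0.0504 by edgeR with no filter and 0.262 by edgeR within libraries under 80%.

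Counts over all genes moved more. With no filter, genes called higher were 40 in Dnmt3L-ADD, 363 in Dnmt3a-ADD and 63 in double mutant FGOs, and MII calls were 166 higher and 4034 lower. With the replicate block, which the data did not bear out (correlations from -0.562 to 0.512, at most 4 of 8 over 0.1 in a group), calls were 37 higher and 405 lower in Dnmt3L-ADD, 664 lower in Dnmt3a-ADD, 6 higher and 122 lower in double mutants and 121 higher in MII, and the block changed no call of the 5 genes (Prl8a2 at -3.01, -3.64 and -2.12). With wild-type libraries under 80% alone they were 42 and 573 in Dnmt3L-ADD, 736 lower in Dnmt3a-ADD, 8 and 102 in double mutants and 155 higher in MII. With those of at least 80% they were 28 higher in Dnmt3L-ADD, 101 and 149 in Dnmt3a-ADD, 499 higher in double mutants and 788 lower in MII. Within libraries of at least 80% they were 29 higher in Dnmt3L-ADD, 130 lower in Dnmt3a-ADD, and 17 and 604 in MII. Within those under 80% they were 9 and 38 in Dnmt3a-ADD, 4 and 72 in double mutants, and 53 and 652 in MII. Calls of unequal alleles (maternal and paternal higher) were 116 and 55 with no filter and 398 and 279 with DESeq2, 17 were paternal higher with no replicate block, and leaving out an embryo gave 0 to 593 maternal and 0 to 179 paternal calls.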

Other observations

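Genes of antigen presentation were split in embryo 2. H2-Ab1, a chain of MHC class II, had 94, 18 and 24 maternal and 7, 77 and 0 paternal counts in embryos 1, 2 and 3, and H2-Eb1 had 13, 3 and 5 maternal and 0, 10 and 7 paternal counts. H2-Aa, chosen after its values were seen, had 0, 33 and 0 maternal and 0, 66 and 15 paternal counts. In embryo 2, in which macrophage genes were mostly maternal, these 3 genes thus had more paternal than maternal counts, with maternal shares of 18.95%, 23.1% and 33.3%. Cd74, which encodes the invariant chain that travels with them and was likewise chosen after its values were seen, had 91 maternal counts and no paternal count in embryo 2 and 0 in the others. Of the 4 genes of this list with enough maternal counts, 2 stood over 4-fold above both other embryos on the maternal allele of embryo 2 (H2-Aa and Cd74).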
